A study of Arabidopsis thaliana with 10 samples.

Results

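AP2/ERF proteins are a large plant family of transcription factors that share the AP2 DNA-binding domain, and their transcripts are described here in Arabidopsis thaliana seedlings exposed to a brassinosteroid or overexpressing a factor of the brassinosteroid pathway. Members were taken by annotation and not by their measured values: a symbol that begins with ERF, ESE, CRF or DREB and a number, or a gene name that calls the product an integrase-type DNA-binding protein. Of the 38303 annotated genes 108 met this rule, after 10 rapid-response and cold-response loci of the family had been set aside. Of the 108, 3 were not AP2/ERF genes: ERF1-1, ERF1-2 and ERF1-3 encode eukaryotic release factors, which end translation, and met the rule by their symbol alone. The other 105 were AP2/ERF loci, of which 81 had a single coding exon (1 in the shortest gene model), 86 fell into a phylogenetic group from I to X, 11 belonged to the AP2 subfamily and 8 were in no list. The rule does not take in the whole family, and RAP2.12, RAP2.2 and RAP2.3 are among the genes outside it.

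The ERF and DREB subfamilies carry a single AP2 domain, while most proteins of the AP2 subfamily carry a pair. DREB proteins (groups I to IV) bind the DRE element of cold and drought genes. ERF proteins (groups V to X) include activators and repressors that bind the GCC box of ethylene and jasmonate responsive genes, the cytokinin response factors (CRF), and factors that control the cuticle. AP2 subfamily proteins act in meristems, in floral organs and in the timing of flowering. Brassinosteroids are growth-promoting steroid hormones whose signal ends at the transcription factors BZR1, BES1 and BEH1 to BEH4, which bind the E-box, including its G-box form, and the brassinosteroid response element (BRRE).

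Messenger RNA of whole seedlings, 12 days old and raised at 23 °C in long days (16 h light, 8 h dark), was sequenced in 10 libraries, 2 in each of 5 groups, all in the accession Col-0. In the hormone experiment wild-type seedlings received 100 nM brassinolide (BL, the most active brassinosteroid) for 6 h, with a control that is called mock here, because the treatment protocol names it mock, although the sample titles call it untreated. In the overexpression experiment 35S-BEH2-YFP and 35S-BZR1-YFP seedlings, both without hormone, were set against untreated Col-0. The 35S promoter drives expression in nearly all cells, so levels in these lines are not those of the native promoters. None of the 5 groups carries YFP alone, and how many transformants stand behind each line cannot be read from the labels. The series asks how far BZR1 and BEH2 differ in the genes they regulate.

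The authors' deposited tables hold a single FPKM level for each gene in each group, pooled over 2 libraries; FPKM counts fragments per kilobase of transcript and is scaled to the sequencing depth. The depth of each library is therefore unknown, and no value per library can be shown. "Rose", "fell" and "called" are used at a q-value (the p-value adjusted over genes) under 0.05 in the authors' deposited Cuffdiff tables. In the BEH2-YFP table the deposited q-values of called members were larger than Benjamini-Hochberg adjustment within that table gives. For the member DREB26 they were 0.00149 and 0.000818, so the deposited adjustment was not made within that table alone. With BL both were 0.0235 for this gene. Each ± gives a standard error for a log2 fold change, derived from the deposited test statistic and a scaling constant. The constant was set so that statistic and p-value match at the median gene, and without it each standard error would be larger. The labels call the 2 libraries of a group biological replicates and say no more of their origin. The overexpressed transcripts stood at 2477 FPKM for BEH2 in BEH2-YFP, against 25.8 in Col-0, and at 1265 FPKM for BZR1 in BZR1-YFP, against 13.8 in Col-0. Of the leaf markers, RBCS1A lay between 6534 and 9080 FPKM in all groups, but the light-harvesting gene CAB2, which has near-identical copies, was at 12.7 FPKM with BL and 9.33 in mock and between 3703 and 4823 FPKM in the overexpression experiment. The root markers PHT1;1 (45.2 to 91.6 FPKM) and EXPA7 (3.49 to 8.86 FPKM) were present in every group. The experiments were quantified in separate runs, so levels are compared between them without a test.

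Levels ranged widely within the family. Of the 108 members 50 reached 1 FPKM in every group, 35 stayed under 1 FPKM in every group and 23 lay in between; 5 (HRD, ESE1, AT5G18450, AT1G28160 and AT5G67000) were listed at 0 in all groups. Cuffdiff tested 86 members in at least 1 comparison, 71 in all 3 and 22 in none. The most abundant AP2/ERF transcript was AT5G61590 of group IX (synonym DEWAX, a repressor of wax synthesis), at 132 FPKM with BL, 125 in mock, 43.1 in BEH2-YFP, 45.8 in BZR1-YFP and 50.1 in Col-0. It was not called in any comparison, and its level differed more between the experiments than within them. In group VIII the highest mean over the 5 groups was that of ERF3, a repressor with an EAR motif, at 39.7 FPKM with BL, 37.7 in mock, 26.2 in BEH2-YFP, 25.2 in BZR1-YFP and 29.0 in Col-0, although ERF4 of the same group was higher in BZR1-YFP (27.3) and Col-0 (31.8). In group I the highest mean was that of AT1G22190 (17.1 to 28.9 FPKM), but in the hormone experiment AT4G39780, not called in any comparison, was higher, at 36.6 FPKM with BL and 33.0 in mock. AT4G13040, in no list, stood between 14.6 and 26.1 FPKM, and AT3G57600, with the highest mean of group IV, between 3.0 and 5.52 FPKM; neither was called. DREB2A, of group IV as well, was above AT3G57600 in the hormone experiment, at 4.02 FPKM with BL and 3.65 in mock. The release factor ERF1-2 lay between 52.6 and 76.6 FPKM and was not called.

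Brassinolide against mock shows which members differ after 6 h of hormone. Of 82 members tested, 13 (15.9%) were called, beside 5.46% of all 22864 genes tested. Of these 13, 4 rose (4.88% of members; 3.01% of all genes) and 9 fell (11% of members; 2.45% of all genes). The members' median log2 fold change was -0.06, against 0.00 over all genes, and the values ran from -2.32 to 2.85. At an unadjusted p under 0.05 there were 27 members (32.9%; 13.1% of all genes). At a q under 0.01, 3 rose and 4 fell (2.07% and 1.61% of all genes), and at a q under 0.1 with at least a 2-fold change, 2 rose and 5 fell (1.15% of all genes in each direction). The DREB subfamily (31 tested, 3 higher, 2 lower) had a median of 0.15 and the ERF subfamily (33 tested, 1 higher, 5 lower) one of -0.32. Fewer cells of a type and less RNA per cell cannot be told apart in whole seedlings.

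Among the genes that rose with BL, ESE3 had the largest change. ESE3, of group V and named for its induction by ethylene and salt (AT5G25190, TAIR10.1 chromosome 5, 8706745 to 8707885, minus strand, 2 coding exons), stood at 20.2 FPKM with BL and at 2.81 FPKM in mock, a 7.19-fold rise (log2 2.85 ± 0.25; q = 0.00175 in the authors' deposited table). AT4G13620, of group I, stood at 6.68 FPKM with BL and 2.27 in mock (log2 1.56 ± 0.25, deposited q = 0.00175). The other genes that rose did so by less than 2-fold. TINY (symbol tny), a DREB factor of group III that is known to promote drought responses and to restrain brassinosteroid-promoted growth, stood at 11.5 FPKM with BL and 6.73 in mock (log2 0.77 ± 0.20, deposited q = 0.00711). DREB26, of group II, stood at 15.2 FPKM with BL and 9.87 in mock (log2 0.62 ± 0.19, deposited q = 0.0235).

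The genes that fell with BL came from the repressors, the CRF-like genes, group I, group X and the AP2 subfamily. ERF12, an EAR-motif repressor of group VIII, was at 0.744 FPKM with BL and 2.14 in mock (log2 -1.52 ± 0.35, deposited q = 0.00321). ERF4, an EAR-motif repressor that dampens ethylene and jasmonate responses, was at 23.3 FPKM with BL and 35.2 in mock (log2 -0.60 ± 0.17, deposited q = 0.0118). ERF12 and ERF11 are neighbours on chromosome 1 with 2668 bases and no coding gene between them. ERF11 stood at 1.20 FPKM with BL and 2.44 in mock and was not called (deposited q = 0.0609). Of the 10 tested members of group VIII, 7 had a value below 0 and the median was -0.56. This count was not particular to BL: 7 of 10 also lay below 0 in BEH2-YFP (median -0.39) and in BZR1-YFP (median -0.19). Those lines were both set against the same Col-0 libraries.

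The cytokinin response factors and their close relatives had values mostly below 0 with BL. CRF10 was at 10.8 FPKM with BL and 17.3 in mock (log2 -0.68 ± 0.17, deposited q = 0.00175). CRF11 was at 15.4 FPKM with BL and 21.8 in mock (log2 -0.50 ± 0.16, deposited q = 0.0444). Both belong to the CRF-like group VI-L. Over groups VI and VI-L together, 10 of 11 tested members had a value below 0, with a median of -0.49, but only these 2 were called. CRF6, known to delay leaf senescence and with the highest mean of group VI over the 5 groups though not the highest level in Col-0 or BZR1-YFP, stood at 13 FPKM with BL and 18.5 in mock (log2 -0.51, deposited q = 0.0792, not called), and CRF2 at 9.74 FPKM with BL and 13.9 in mock (log2 -0.51 ± 0.18, deposited q = 0.0722, not called).

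Of group I, AT1G36060 was at 10.1 FPKM with BL and 17.7 in mock (log2 -0.81 ± 0.18, deposited q = 0.00175). AT1G22190, which carries the synonym RAP2.4 in RefSeq, was at 17.1 FPKM with BL and 24.8 in mock (log2 -0.54 ± 0.17, deposited q = 0.0322). AT2G33710, of group X, was at 1.48 FPKM with BL and 3.10 in mock (log2 -1.07 ± 0.31, deposited q = 0.0399). These 3 changes were not called in either overexpression line.

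In the AP2 subfamily, a grouping made after the values had been seen, PLT2 and BBM fell. Both are PLETHORA-type regulators that maintain the stem cells of the root tip. PLT2 was at 0.503 FPKM with BL and 1.42 in mock (log2 -1.49 ± 0.33, deposited q = 0.00585). BBM was at 0.808 FPKM with BL and 1.74 in mock (log2 -1.11 ± 0.31, deposited q = 0.0178). PLT1, the closest relative of PLT2, was at 1.18 FPKM with BL and 2.03 in mock (log2 -0.79, deposited q = 0.0852, not called), and ANT, which promotes organ growth, at 6.90 FPKM with BL and 9.29 in mock (log2 -0.43, deposited q = 0.230, not called). Of the 10 tested members 8 lay below 0, with a median of -0.40. In BEH2-YFP 6 of 10 lay below 0 (median -0.14), and in BZR1-YFP 8 of 10 (median -0.13). Of the root markers, EXPA7, which marks root hair cells, was at 4.23 FPKM with BL and 8.86 in mock, and PHT1;1 at 91.6 FPKM with BL and 75 in mock; their part in the PLT2 and BBM values was not tested.

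**Figure D1:**
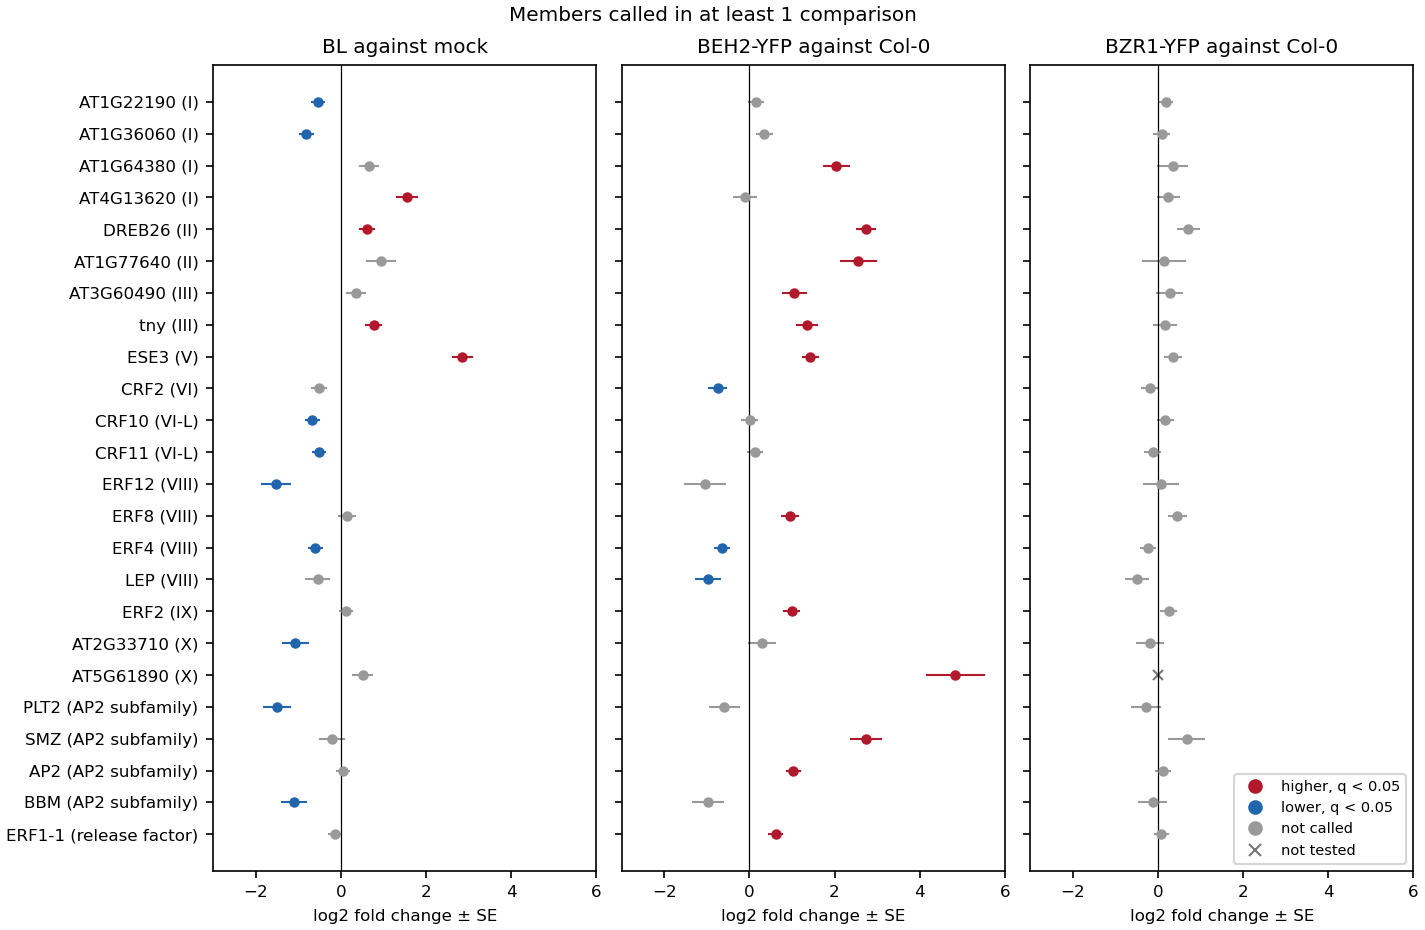
Log2 fold change ± SE of the 24 members called in at least 1 comparison, 1 row per gene with its group in parentheses. The 3 panels are, from left to right, BL, BEH2-YFP and BZR1-YFP. The SE is derived from the deposited statistic and a scaling constant. Red marks called rises, blue called falls, grey values not called, and the cross a gene not tested; ESE3 at 2.85 is the highest value with BL, and all values for BZR1-YFP are grey.

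BEH2-YFP against Col-0 shows which members differ when BEH2 is constitutively overexpressed. Of 78 members tested, 15 (19.2%) were called, beside 11.8% of all 22729 genes tested. Of these, 12 rose (15.4% of members; 7.31% of all genes) and 3 fell (3.85% of members; 4.53% of all genes). One of the 12 rises was the release factor ERF1-1 (52.0 FPKM in BEH2-YFP, 33.8 in Col-0, log2 0.62 ± 0.18); without the 3 release factors the count was 11 higher and 3 lower of 75. The median log2 over the members was 0.04, against -0.01 over all genes. The DREB subfamily had 5 rises and 0 falls among 29 tested members, and the ERF subfamily 4 rises and 3 falls among 34. At an unadjusted p under 0.05, 16 members were higher and 15 lower (12.2% and 11.1% of all genes). At a q under 0.01, 9 rose and 0 fell (5.53% and 2.66% of all genes), and at a q under 0.1 with at least a 2-fold change, 9 rose and 1 fell (4.34% and 2.32% of all genes).

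DREB26 had the largest change among the DREB genes. DREB26 (AT1G21910, chromosome 1, 7696427 to 7697831, plus strand) had a level of 23.0 FPKM in BEH2-YFP and 3.45 in Col-0, a 6.68-fold rise (log2 2.74 ± 0.24; q = 0.00149 in the authors' deposited table, the smallest q that table gives). AT1G77640, of the same group II (chromosome 1, 29178705 to 29179877, plus strand), was at 3.89 FPKM in BEH2-YFP and 0.660 in Col-0 (log2 2.56 ± 0.43, deposited q = 0.00149). AT1G64380, of group I, was at 4.98 FPKM in BEH2-YFP and 1.21 in Col-0 (log2 2.04 ± 0.31, deposited q = 0.00149). In the hormone experiment AT1G77640 was at 1.75 FPKM with BL and 0.910 in mock (deposited q = 0.155), and AT1G64380 at 4.90 FPKM with BL and 3.10 in mock (deposited q = 0.0866); neither was called there.

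Group III, the group of TINY, lay mostly above 0 in this line: 10 of 12 tested members did, with a median of 0.60, and 2 rose. TINY was at 8.54 FPKM in BEH2-YFP and 3.35 in Col-0 (log2 1.35 ± 0.26, deposited q = 0.00149). AT3G60490 was at 5.68 FPKM in BEH2-YFP and 2.73 in Col-0 (log2 1.06 ± 0.29, deposited q = 0.0134). AT4G32800, the next by deposited q (0.0640), was at 5.88 FPKM in BEH2-YFP and 3.44 in Col-0 and was not called. It had the smallest deposited q of all members that were higher but not called. Adjustment within the BEH2-YFP table alone gave 13 rises among the members in place of 12, so this call depends on the adjustment. AT2G44940, the most abundant gene of the group in both BEH2-YFP and Col-0, was at 24.0 FPKM in BEH2-YFP and 23.1 in Col-0 (log2 0.06). In BZR1-YFP, set against the same Col-0 libraries, 10 of the 12 also lay above 0, with a median of 0.24, and 0 were called.

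Among the ERF genes that rose in BEH2-YFP, ESE3 rose again. It stood at 37.4 FPKM in BEH2-YFP and 13.9 in Col-0 (log2 1.43 ± 0.20, deposited q = 0.00149). ERF2, an activator of GCC-box defence genes, was at 37.3 FPKM in BEH2-YFP and 18.8 in Col-0 (log2 0.99 ± 0.19, deposited q = 0.00149). ERF8, an EAR-motif repressor, was at 22.2 FPKM in BEH2-YFP and 11.4 in Col-0 (log2 0.96 ± 0.22, deposited q = 0.00149). AT5G61890, of group X, had the largest ratio of the family, 28.5-fold, at 3.95 FPKM in BEH2-YFP and 0.139 in Col-0 (log2 4.83 ± 0.70, deposited q = 0.0125). Its deposited Cuffdiff p, unadjusted, was 0.0006, larger than this standard error would give, so the ± is too small for this gene. The Col-0 value of that gene was low, and in the hormone experiment it stood at 5.87 FPKM with BL and 4.12 in mock, so that mock and Col-0, both wild type, were 29.7-fold apart.

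The members that fell in BEH2-YFP did so by less than 2-fold. ERF4 was at 20.4 FPKM in BEH2-YFP and 31.8 in Col-0 (log2 -0.64 ± 0.19, deposited q = 0.0190). CRF2 was at 5.40 FPKM in BEH2-YFP and 9.05 in Col-0 (log2 -0.75 ± 0.22, deposited q = 0.0167). LEP, a group VIII gene whose activation gives leafy petioles, was at 2.67 FPKM in BEH2-YFP and 5.21 in Col-0 (log2 -0.96 ± 0.30, deposited q = 0.0360). None of these 3 passed a q under 0.01. The CRF-like genes CRF10 (10.2 FPKM in BEH2-YFP, 10.1 in Col-0) and CRF11 (10.1 FPKM in BEH2-YFP, 9.18 in Col-0) were not called.

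ERF4 and ERF2 are shown with their upstream sequence because a G-box lies in each within 100 bases of the gene start, and because they moved in opposite directions. The windows are the 300 bases before the annotated gene start, read 5′ to 3′ on the gene's strand from the RefSeq assembly, at chr3:5121003-5121302, plus strand, and chr5:19172957-19173256, minus strand, of TAIR10.1. Capitals mark the G-box CACGTG in ERF4, and in ERF2 the G-box together with the BRRE it overlaps (CGTGCG on the opposite strand).
ERF4: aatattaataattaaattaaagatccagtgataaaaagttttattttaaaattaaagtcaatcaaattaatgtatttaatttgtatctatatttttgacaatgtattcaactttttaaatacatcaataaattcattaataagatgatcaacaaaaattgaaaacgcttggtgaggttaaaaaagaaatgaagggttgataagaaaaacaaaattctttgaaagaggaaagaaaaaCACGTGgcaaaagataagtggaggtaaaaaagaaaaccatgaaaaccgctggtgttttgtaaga
ERF2: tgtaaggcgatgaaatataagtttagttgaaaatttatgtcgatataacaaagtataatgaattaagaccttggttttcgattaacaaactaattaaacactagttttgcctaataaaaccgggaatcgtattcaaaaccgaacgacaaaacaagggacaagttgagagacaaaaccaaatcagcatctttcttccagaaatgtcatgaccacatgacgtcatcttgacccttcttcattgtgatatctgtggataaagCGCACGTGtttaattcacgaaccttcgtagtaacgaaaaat
The G-box begins 64 bases before the start of ERF4 and 39 bases before that of ERF2. Searched on both strands, it occurred in 15 of 105 AP2/ERF windows (14.3%), against 7.09% of 27443 protein-coding windows of the same length, and in 3 of the 23 called AP2/ERF genes (13%), ERF12 being the third. BRRE letters (CGTGTG or CGTGCG) occurred in 14 AP2/ERF windows (13.3%), against 7.64% of all windows, and in 2 of the 23 called genes. The E-box CANNTG, which includes the G-box, was in 69.5% of AP2/ERF windows and 61.9% of all windows. The DRE core CCGAC was in 15.2% of AP2/ERF windows, 13.9% of all windows and 7 of the 23 called genes (30.4%), and the GCC box GCCGCC in 4.76% of AP2/ERF windows, 2.26% of all windows and 0 of the called genes. These are matches of letters and not tested binding sites.

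SMZ and AP2, of the AP2 subfamily, rose in BEH2-YFP. SMZ, a repressor of flowering (AT3G54990, chromosome 3, 20373718 to 20376522, minus strand, 5 coding exons), was at 19.5 FPKM in BEH2-YFP and 2.90 in Col-0, a 6.71-fold rise (log2 2.75 ± 0.38, deposited q = 0.00149). AP2, the floral organ identity gene that names the family (AT4G36920, chromosome 4, 17400610 to 17403469, plus strand, 10 coding exons), was at 36.5 FPKM in BEH2-YFP and 17.8 in Col-0 (log2 1.03 ± 0.18, deposited q = 0.00149). SNZ, a close relative of SMZ, was at 9.54 FPKM in BEH2-YFP and 9.75 in Col-0 (log2 -0.03, not called). With BL none of the 3 was called, and SMZ stood at 8.55 FPKM with BL and 9.88 in mock. Of the flower markers, AP1 was at 0.12 FPKM in BEH2-YFP and 3.61 in Col-0, and PI at 0.970 FPKM in BEH2-YFP and 3.62 in Col-0; both were lower in the line, and their part in the SMZ and AP2 values was not tested.

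These 3 genes are known targets of the microRNA miR172, and their sites are shown because AP2 and SMZ were called in this line and SNZ was not, a contrast that was not itself tested. The mature miR172a, from the RefSeq annotation (chr2:11942918-11942938, minus strand), is given with its seed, bases 2 to 8, in capitals. Each site is the best match in the coding sequence, on the transcript strand, with capitals where it differs from the exact complement.
miR172a: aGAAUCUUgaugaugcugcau
AP2: CtgcagcatcatcaGgattct
SMZ: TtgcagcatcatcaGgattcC
SNZ: TtgTagcatcatcaGgattcC
The sites lie at chr4:17403019-17403039 on the plus strand for AP2, and at chr3:20373774-20373794 and chr2:16389066-16389086 on the minus strand for SMZ and SNZ. AP2 differs from the complement at 2 bases, SMZ at 3 and SNZ at 4, and no other member had fewer than 5 differences among the 108 searched. The 5 annotated MIR172 genes were listed at 0 in every group and were not tested, so the data hold no value for miR172 itself.

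**Figure D2:**
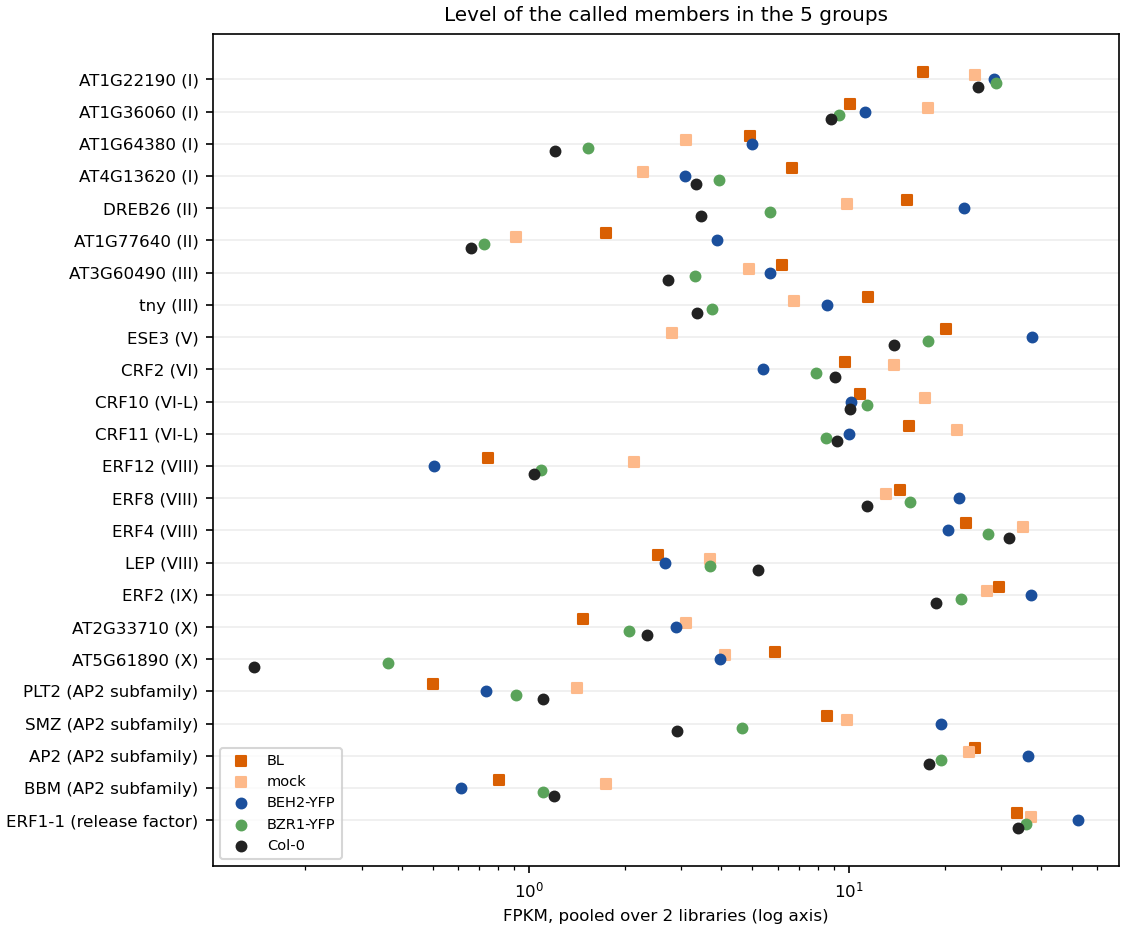
FPKM (log axis, pooled over 2 libraries) of the 24 called members in the 5 groups, one row per gene; squares are the hormone experiment (BL and mock) and circles the overexpression experiment (BEH2-YFP, BZR1-YFP and Col-0). ESE3 stands at 20.2 with BL and 2.81 in mock, and AT5G61890 at 3.95 in BEH2-YFP and 0.139 in Col-0 but at 4.12 in mock.

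**Figure D3:**
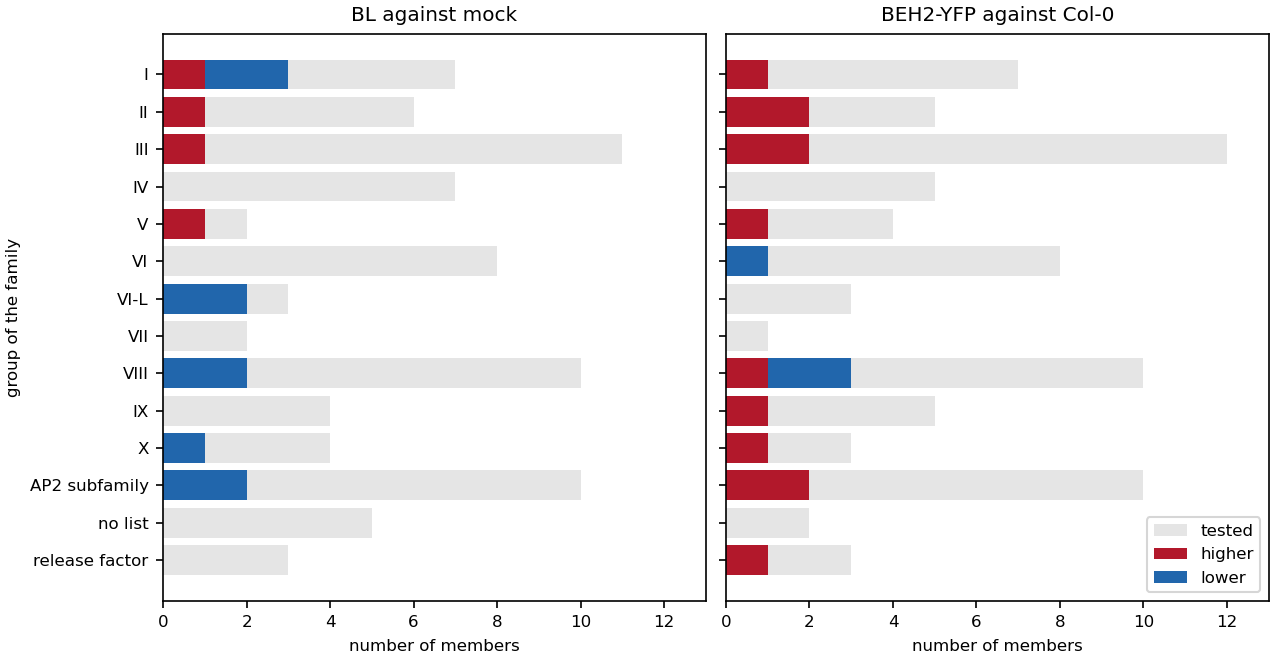
Number of members tested (grey bars), higher (red) and lower (blue) at a deposited q under 0.05 in each group of the family, for BL against mock on the left and BEH2-YFP against Col-0 on the right. With BL the falls lie in groups I, VI-L, VIII and X and in the AP2 subfamily, and in BEH2-YFP 5 of the 12 rises lie in groups I to III.

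BZR1-YFP against Col-0 gave 0 called members of 75 tested, at a deposited Cuffdiff q under 0.05, beside 1.62% of all 22605 genes tested (1.15% higher and 0.478% lower). At an unadjusted p under 0.05 there were 6 members (8.00%, against 5.48% of all genes), 5 higher and 1 lower (3.74% and 1.73% of all genes). ERF53, a drought-responsive factor in no list, was at 1.25 FPKM in BZR1-YFP and 0.443 in Col-0 (log2 1.5 ± 0.49, deposited q = 0.0952), and was the only member at a q under 0.1 with at least a 2-fold rise (0.588% of all genes). DREB26 was at 5.66 FPKM in BZR1-YFP and 3.45 in Col-0 (log2 0.72 ± 0.26, 95% interval 0.20 to 1.23, deposited q = 0.0960). The remaining 4 were AT1G44830 (log2 1.31), CRF5 (0.58) and ERF8 (0.45), all higher, and CRF4 (-0.54), lower. The members' median log2 was 0.06, against 0.00 over all genes.

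Tested directly, the BEH2-YFP effect exceeded the BZR1-YFP effect for 6 of 75 members (8.00%, beside 3.59% of all 22336 genes tested, 2.31% higher and 1.28% lower), and was smaller for 0. At an unadjusted p under 0.05 it was larger for 9 members and smaller for 4 (5.53% and 4.96% of all genes). The test was a two-sided normal test on the derived standard errors with Benjamini-Hochberg adjustment over all genes. Both effects share the same Col-0 libraries, whose error cancels in the difference, and the standard errors are too large in that respect. They match the deposited p-values only at the median gene, and were too small for some large changes at low levels. For TDR1 (0.0764 FPKM in BEH2-YFP, 0.612 in Col-0) the 95% interval of the BEH2-YFP effect was -5.22 to -0.79. Its deposited Cuffdiff p, unadjusted, was 0.1225. With standard errors taken without the scaling constant, which are larger for every gene, 1 member in place of 6 passed. AT1G77640 differed by 2.42 on the log2 scale (95% interval 1.11 to 3.73, adjusted p of 0.0122). SMZ differed by 2.07 (0.94 to 3.20, adjusted p of 0.0134), and stood at 19.5 FPKM in BEH2-YFP and 4.64 in BZR1-YFP. For DREB26 the difference was 2.02 (1.33 to 2.72, adjusted p of 1.66e-06). The others were AT1G64380 (1.70, adjusted p of 0.0130), ESE3 (1.08, adjusted p of 0.00735) and AP2 (0.90, adjusted p of 0.0176). TINY missed the threshold at 1.19 (0.43 to 1.94, adjusted p of 0.0555).

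The other members called in BEH2-YFP and tested in both lines did not pass the adjusted threshold of this test. The unadjusted intervals of ERF2 (0.74, 95% interval 0.21 to 1.27, adjusted p of 0.126) and of ERF1-1 (0.54, 0.05 to 1.03, adjusted p of 0.356) lay above 0, while those of ERF8 (0.50, -0.10 to 1.11) and AT3G60490 (0.78, -0.07 to 1.62) included 0. The genes lower in BEH2-YFP had intervals that reached 0 or beyond: CRF2 by -0.56 (-1.14 to 0.03), LEP by -0.47 (-1.28 to 0.34) and ERF4 by -0.42 (-0.94 to 0.10). AT5G61890 stood at 3.95 FPKM in BEH2-YFP and 0.364 in BZR1-YFP, but was not tested in the BZR1-YFP table.

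**Figure D4:**
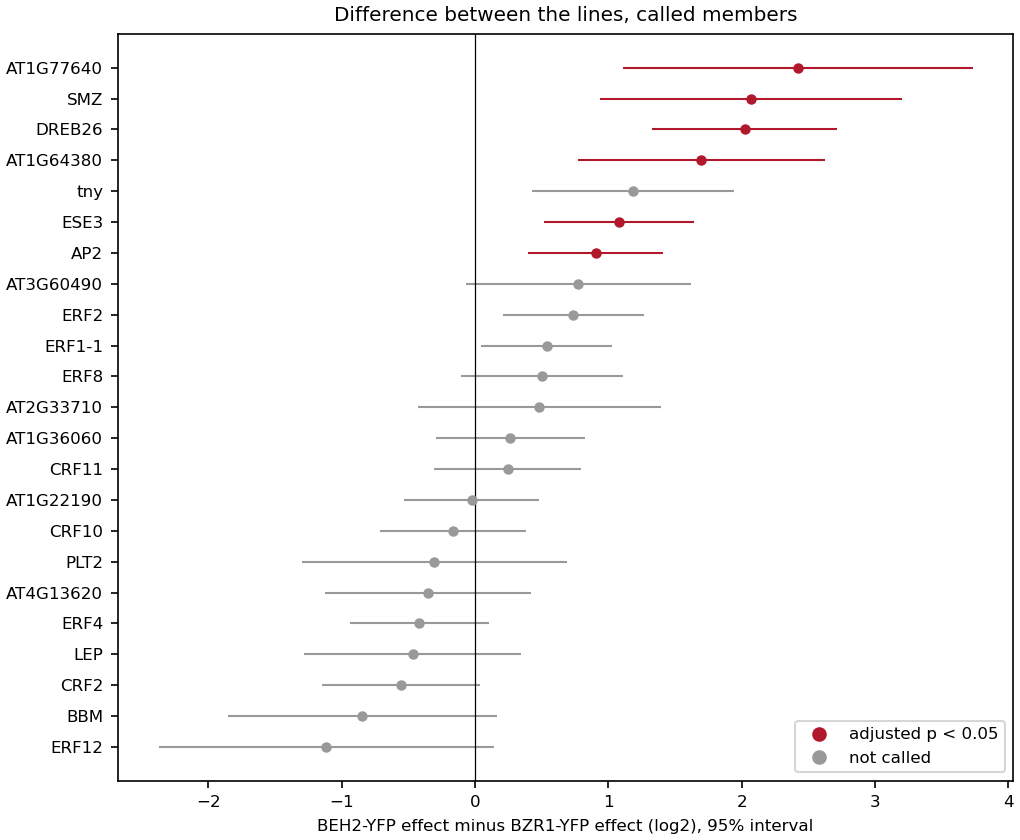
BEH2-YFP effect minus BZR1-YFP effect on the log2 scale, with 95% intervals, for the called members that were tested in both lines, ordered by size. The 6 genes in red passed an adjusted p of 0.05, from AP2 at 0.90 to AT1G77640 at 2.42; the intervals of all genes below 0 on the axis cross 0.

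Called with BL and in BEH2-YFP were 4 members, which moved in the same direction in both: ESE3, DREB26 and TINY were higher and ERF4 was lower. They are 30.8% of the 13 members called with BL and 26.7% of the 15 called in BEH2-YFP. Over all genes 506 were called in both, 40.5% of those called with BL and 18.8% of those called in BEH2-YFP. How many of these 506 moved in the same direction was not counted, so the shared direction of the 4 members has no background. The comparisons share no library. Across the 74 members tested in both, the log2 values had Pearson's r = 0.42 and Spearman's rho = 0.40, beside 0.12 and 0.15 over 22079 genes; this correlation is across genes, which are not independent replicates.

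The control groups of the experiments, both wild-type Col-0, differed for many members. Of 68 members at 1 FPKM or more in a control, 18 were at least 2-fold higher in mock and 7 at least 2-fold higher in Col-0, together 36.8%, beside 16.3% of 21120 genes. ESE3 was at 2.81 FPKM in mock and 13.9 in Col-0, so its level with BL (20.2 FPKM) was nearer to that of untreated Col-0 than to that of mock. SNZ was at 1.5 FPKM in mock and 9.75 in Col-0, and AT2G44940 at 6.59 FPKM in mock and 23.1 in Col-0. In the other direction ERF73, a group VII gene induced by low oxygen, was at 19.4 FPKM in mock and 4.41 in Col-0, ABR1 of group X at 3.82 in mock and 0.223 in Col-0, and DREB2C at 2.79 in mock and 0.588 in Col-0. WRI4, which activates wax synthesis in stems, was at 31.1 FPKM in mock and 10.9 in Col-0. Treatment, quantification run and experiment cannot be told apart in this comparison, which has no test, and CAB2, with 9.33 FPKM in mock and 4503 in Col-0, differed in it far more than any member named here.

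**Figure D5:**
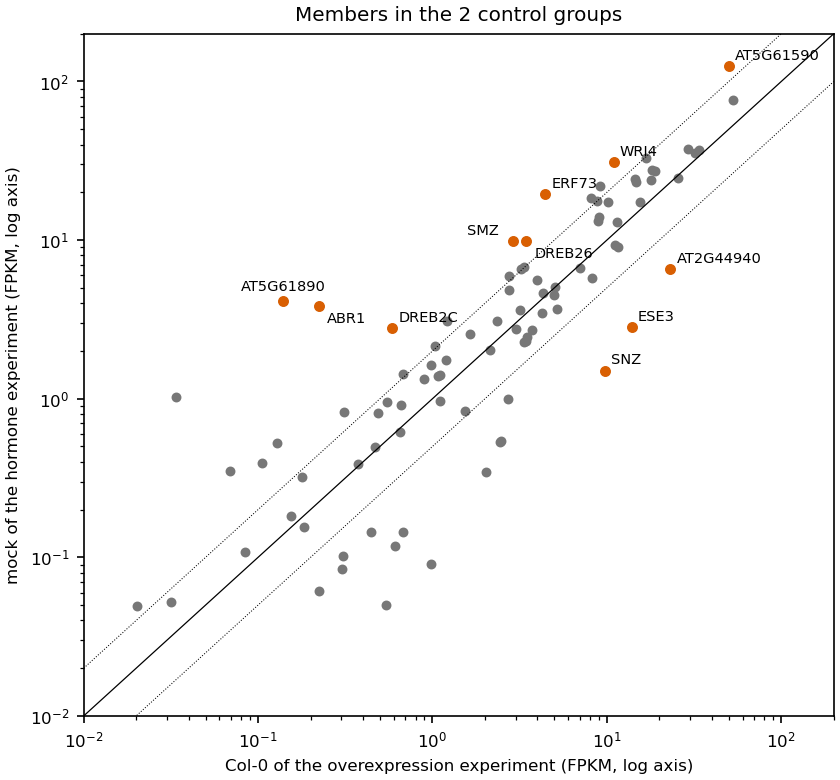
FPKM of each member above 0 in both control groups, with mock of the hormone experiment on the vertical axis and Col-0 of the overexpression experiment on the horizontal axis (both log axes); the solid line marks equal levels and the dotted lines a 2-fold difference. Orange points are named, among them ERF73 at 19.4 in mock and 4.41 in Col-0 above the lines and SNZ at 1.5 in mock and 9.75 in Col-0 below them.

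Genes upstream and downstream of the family were counted from lists outside it. Over all genes tested, 5.46% were called with BL, 11.8% in BEH2-YFP and 1.62% in BZR1-YFP. The lists are short, and none was tested against these shares. Of 12 tested ethylene signalling genes, which act upstream of many ERFs, 0 were called in any of the 3 deposited tables. Of 9 tested hypoxia genes bound by group VII factors 0 were called with BL and 2 fell in BEH2-YFP, SUS4, a sucrose synthase (1.94 FPKM in BEH2-YFP, 3.29 in Col-0), and AT4G33070, a pyruvate decarboxylase (1.47 in BEH2-YFP, 2.67 in Col-0). Of 9 tested DRE-containing cold and drought genes 1 rose and 1 fell with BL, and 2 rose and 2 fell in BEH2-YFP. COR47, a dehydrin, rose in both, at 206 FPKM with BL and 139 in mock, and at 174 FPKM in BEH2-YFP and 107 in Col-0. LEA14 fell in both, at 21.3 FPKM with BL and 33.6 in mock, and at 12.2 FPKM in BEH2-YFP and 36.9 in Col-0. LTI78 rose in BEH2-YFP (11.3 FPKM, against 7.04 in Col-0), and COR15A, which protects chloroplast membranes in the cold, fell there (5.87 FPKM, against 21.8 in Col-0). LTI65 rose in BZR1-YFP, to 1.04 FPKM, against 0.255 in Col-0.

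Of 8 tested wax and cutin genes, KCS1 and KCS20, which elongate very-long-chain fatty acids, rose with BL, KCS1 at 50.6 FPKM with BL and 35.5 in mock and KCS20 at 123 FPKM with BL and 88.3 in mock. CYP86A4, a cutin synthesis enzyme, fell in BEH2-YFP (1.78 FPKM, against 4.01 in Col-0). Of 4 tested GCC-box defence genes 1 rose with BL, and 1 rose and 2 fell in BEH2-YFP. Over all genes tested, 3.01% rose with BL, and 7.31% rose and 4.53% fell in BEH2-YFP. The defensin PDF1.2 rose with BL (17.3 FPKM, against 3.74 in mock), and fell in BEH2-YFP (1.72 FPKM) and BZR1-YFP (52.6 FPKM), against 293 FPKM in Col-0. PR4 rose in BEH2-YFP (1009 FPKM, against 145 in Col-0), and the chitinase-family gene AT2G43590 fell there (28.7 FPKM, against 75.6 in Col-0).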

How the data were processed

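The libraries are stranded mRNA libraries of whole seedlings. Alignment was by TopHat2 2.0.13 against TAIR10 and testing by Cuffdiff 2.2.0, per the submitters' processing notes; the use of strand in counting is not given in the sources used here, so overlapping antisense transcripts cannot be told apart. Per the file headers, each of the 3 deposited tables holds the FPKM of 2 groups, pooled by the authors. Fold changes were deposited as log2 ratios of these values, with no pseudocount. Cuffdiff's test statistic, a score, and its p-value and q-value were deposited beside them.

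A gene was called at a q under 0.05. The standard error was the absolute log2 value divided by the product of the absolute statistic and a constant (1.42 in the BEH2-YFP table, 1.43 in the others), set so that statistic and p-value match on a normal scale at the median gene. Depths and values per library were not used here; fits per library, a replicate block and leaving out replicates were planned and could not be run. The members and the gene lists were chosen with earlier results of these data known. Named were all called members, the member of each group with the highest mean FPKM over the 5 sample groups, and called pathway genes; others were chosen after their values were seen. Upstream windows and coding sequences were read from TAIR10.1, the assembly named in the tables' annotation. Some upstream sequence is not reported here. Scripts ran in Python 3.11.15 (SciPy 1.17.1, pandas 2.3.3, numpy 2.4.6, matplotlib 3.10.9).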

Additional observations from a re-analysis of the deposited data

Results flagged for a closer look

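For 6 members the effect of BEH2-YFP differed from that of BZR1-YFP in the test of the difference itself (two-sided normal test over derived standard errors, Benjamini-Hochberg adjusted over 22336 genes). On the log2 scale the BEH2-YFP effect was larger by 2.42 for AT1G77640, 2.07 for SMZ, 2.02 for DREB26, 1.70 for AT1G64380, 1.08 for ESE3 and 0.90 for AP2. With standard errors taken without the scaling constant, 1 of the members tested passed in place of these 6. Their adjusted p-values, with the constant, ran from 1.66e-06 for DREB26 to 0.0176 for AP2. Groups of 2 pooled libraries allow no check for an outlying library.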

How the results depend on the processing

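The 4 rises and 9 falls with BL became 2 and 5 at a q under 0.1 with at least a 2-fold difference, and 3 and 4 at a q under 0.01. In BEH2-YFP the 3 falls became 1 and 0 under these rules, while the rises were 9 under each. BZR1-YFP had 1 rise (main count 0) at a q under 0.1 with at least a 2-fold difference. With standard errors taken without the constant, 1 member in place of 6 differed between the lines, since each standard error is then larger by that constant. Restricted to members in a phylogenetic group list, the rises and falls were 4 and 7 with BL and 9 and 3 in BEH2-YFP. Without that restriction, 7 members differed between the lines at an adjusted p under 0.1. Counts stayed within 1.5 times, and medians kept their sign, under the filter at 1 FPKM, adjustment within each table, other pseudocounts, centring and, added after seeing the data, leaving out the release factors. The 28 q-values adjusted one by one within their table were all those of called members. That adjustment left the BL values unchanged and lowered the BEH2-YFP values, so none of the 28 could cross 0.05. In BEH2-YFP it gave 13 rises in place of 12. No paired analysis was possible because the deposited values are pooled per group; leaving out each replicate was not run for the same reason. With 2 libraries per group and unknown depth no detection limit can be given, and 22 members were tested in no comparison.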
